A study of Ginkgo biloba with 9 samples.

Results

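A small set of Ginkgo biloba leaf genes lost most of its messenger RNA between green and turning leaves and stood at about the same mean level in yellow leaves as in turning leaves. The set was chosen by measured values and holds 32 of the 43834 gene models in the count table. Normalized counts, here read counts divided by the DESeq2 size factor of the library, had to pass a fixed minimum in every green library, and the lowest green library had to be at least 2 times the highest turning library. The mean of the yellow libraries had to lie between 0.75 and about 1.3 times the mean of the turning libraries, with at least 27 in 1 yellow library or more. The exact limits stand with the processing steps. The 100 gene models with the highest mean in green or in yellow leaves were left out, a step that removed none. The fall from green to turning, the level course from turning to yellow and the difference between yellow and green are therefore properties of the choice. They are described below, and where test calls on them are counted, the choice had fixed the outcome and nothing is read from it.

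The leaves came from 3 healthy adult trees under outdoor conditions, with no treatment and no genetic change. The green leaves, labelled mature, date from September 12, those at the turning stage from October 26 and the yellow, senescent ones from November 8, so that 44 days and then 13 days lay between the stages. Each stage has 3 libraries of total RNA, numbered 1 to 3, with 23766331 to 32319325 counts each. The labels do not say which tree a library came from, so the spread between libraries may be technical. Deviations from stage means did correlate between libraries of the same number, as given with the processing steps. What a number marks is not stated, and the main stage fit did not use it. Each stage was sampled on 1 day, so stage and date cannot be told apart. The files pair no gene model with a gene name, so no member can be assigned a role, and the tissue label and other cell types could not be checked against marker genes. Fewer cells of a type and less RNA per cell cannot be told apart in whole leaves.

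In autumn a leaf takes its chloroplasts apart. Chlorophyll is broken down, the yellow carotenoids it had masked become visible, and nitrogen and other nutrients are moved back into the tree before the leaf drops. Ginkgo is a deciduous gymnosperm whose leaves turn a uniform yellow. In flowering plants many transcripts for photosynthesis and growth decline along this course while those of breakdown and transport enzymes increase. How much of a transcript remains reflects both its synthesis and its decay, which counts do not separate.

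The loss by the turning stage was deep in some members and moderate in others. In turning leaves the members stood at 4.16% to 41.6% of their green mean, with a median of 27.4%, and in yellow leaves at 5.10% to 38.7%, with a median of 26.8%. The widest gap in these percentages, located in the same values, lay between 15.1% and 20.5% of green, with 11 members below it and 21 above it. As a ratio the step from 4.16% to 6.85% was larger, so the place of a gap depends on the scale. No split into groups was tested. The mean in green was 2.41 to 24.04 times that in turning leaves. It was at least 8 times higher for 7 members, at least 4 times higher for 14 and under 4 times higher for 18.

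**Figure D1:**
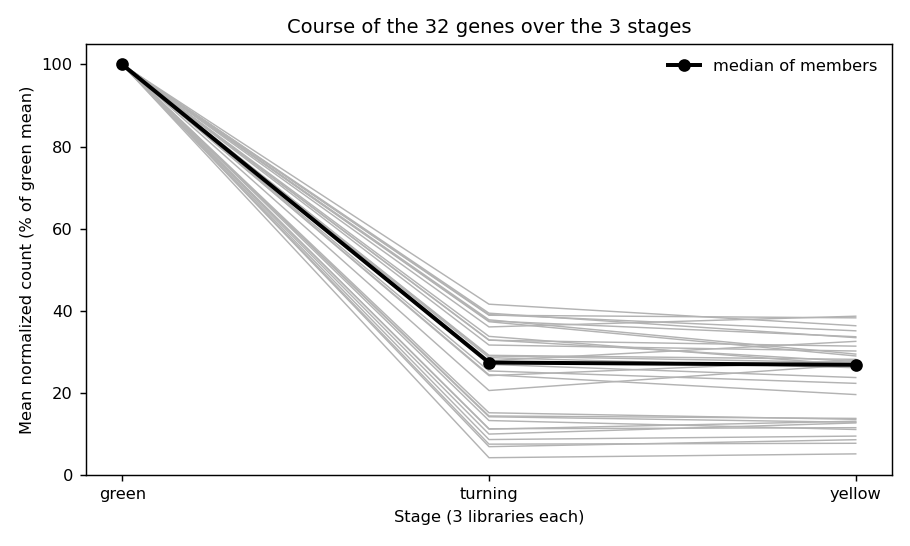
Mean normalized count of each of the 32 members at each stage, as a percentage of its mean in green leaves (grey lines), with the median of the members in black. The lines drop to between 4.16% and 41.6% in turning leaves and stay between 5.10% and 38.7% in yellow leaves, as the choice of members requires.

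The members with the largest ratio of green to turning leaves held a trace of their green level at both later stages. Gb_06356 had normalized counts of 612, 1540 and 447 in green libraries 1, 2 and 3, of 60.1, 28.1 and 20.0 in turning libraries, and of 31.0, 102 and 0 in yellow libraries. Every green library thus lay far above every later one, while the yellow libraries ran from no read at all to above all turning libraries. The absence of reads in yellow library 3 allows a normalized count of up to 4.61, the value of 3 counts in that library, for counting error alone. Gb_06356 fell to 4.16% of its green mean in turning leaves, a log2 fold change of -4.59 ± 1.12 (SE).

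Gb_34514 had normalized counts of 7821, 15999 and 13952 in green libraries, of 487, 1814 and 288 in turning libraries and of 905, 1852 and 471 in yellow libraries. Library 2 was the highest at all 3 stages, and turning and yellow libraries overlapped. Its mean in turning leaves was 6.85% of that in green leaves, a log2 fold change of -3.86 ± 0.80 (SE). Reads of Gb_34514 made up 40.3% of the summed normalized counts of the members at the green stage, 18.0% at the turning stage and 22.4% at the yellow stage. These are shares of reads and are not corrected for transcript length, which is not known here.

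Gb_04147 had nearly the same mean at both later stages. It had 384, 809 and 556 normalized counts in green, 53.0, 45.9 and 31.6 in turning and 39.1, 69.1 and 26.1 in yellow libraries. All green libraries were above all later ones, and the yellow libraries enclosed the turning ones. Turning leaves held 7.47% and yellow leaves 7.68% of the green mean. Gb_34669 had 350, 1027 and 291 normalized counts in green, 40.0, 80.8 and 22.3 in turning and 36.4, 115 and 6.14 in yellow libraries. Library 2 was highest and library 3 lowest at each stage. Its mean was 8.59% of green in turning leaves and 9.43% in yellow leaves.

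Members with many reads in green leaves gave values with less counting error. Gb_08978 had 3319, 3058 and 2287 normalized counts in green libraries, 338, 379 and 524 in turning and 290, 535 and 365 in yellow libraries. Both later stages lay well under green and overlapped each other. Its mean fell from 2888 ± 536 in green to 414 ± 97.8 in turning leaves and stood at 397 ± 126 in yellow leaves (SD, n = 3 libraries each). Gb_18746 went from 2048 ± 539 in green to 203 ± 52.8 in turning and then 259 ± 106 in yellow leaves (SD, n = 3). Its yellow libraries, at 181, 380 and 216, reached above all of its turning libraries, at 261, 191 and 158, only in library 2. Gb_09903 went from 1852 ± 421 in green to 469 ± 167 in turning and 413 ± 83.3 in yellow leaves (SD, n = 3), with the yellow libraries at 361, 509 and 369 inside the range of the turning libraries at 627, 487 and 293.

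**Figure D2:**
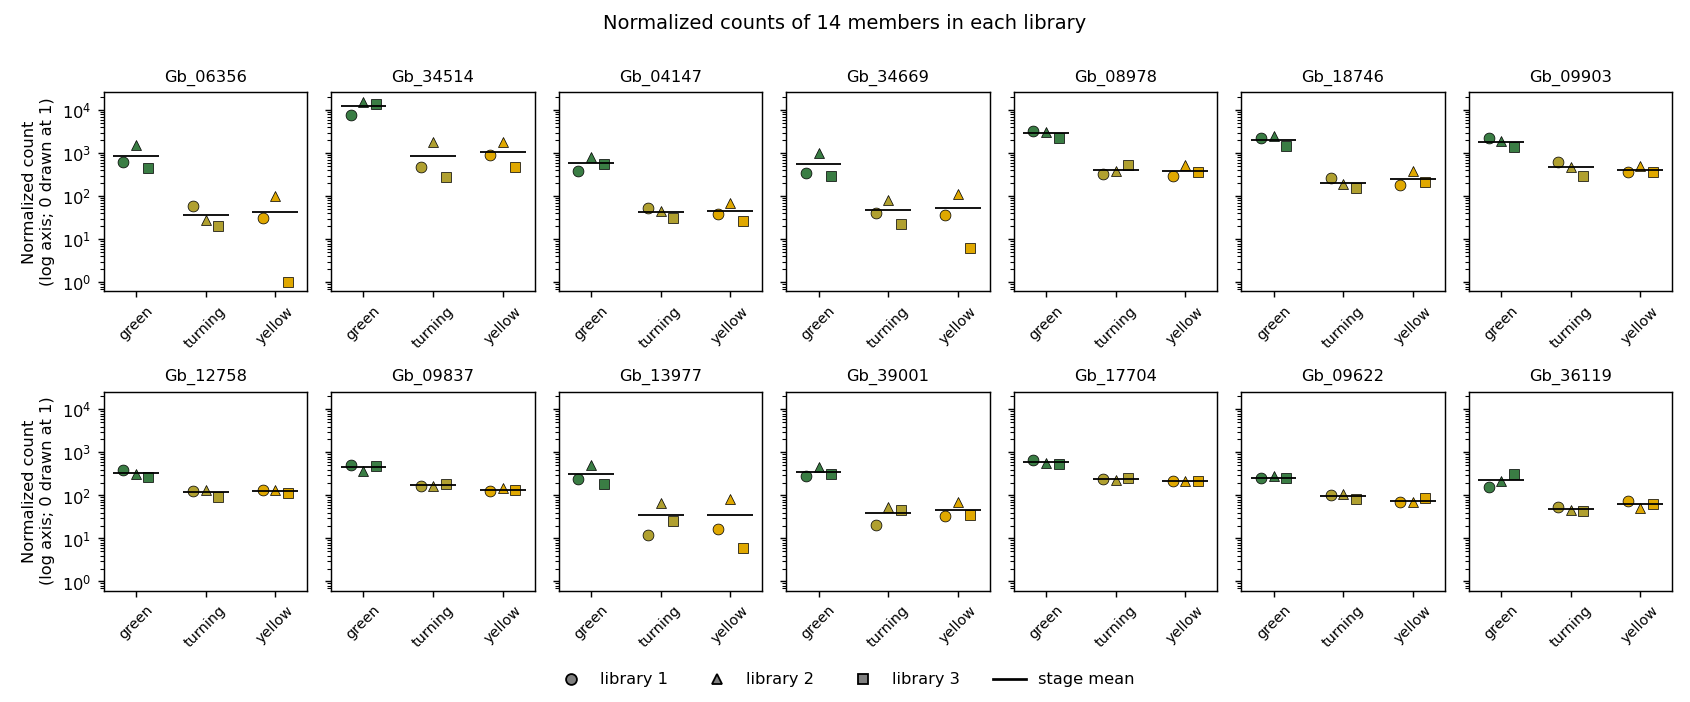
Normalized count of 14 members in each of the 9 libraries on a log axis, with the library number as the symbol, the stage as the colour and the stage mean as a line. Green libraries lie above all later ones in each panel, turning and yellow libraries overlap in most, and the spread is wide in Gb_06356, Gb_34669 and Gb_13977 and narrow in Gb_17704, where yellow libraries run from 212 to 213.

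All members passed the filter on low counts, which follows from the minimum in green leaves. All 32 were called lower in turning than in green leaves, against a background of 12.3% of the 23042 gene models tested (adjusted p below 0.05 in edgeR's quasi-likelihood test). All 32 were called lower in yellow than in green leaves, where the background was 31.9%. None was called in yellow against turning leaves by edgeR, by the DESeq2 test or at an unadjusted p below 0.05, against backgrounds of 20.5% called higher and 21.0% called lower. Leaving out yellow library 3 gave 1 call, Gb_35890, named here after its values were seen. The rule used these contrasts, so nothing is read from the counts. The median log2 fold change of the members was -1.86 from green to turning and -0.11 from turning to yellow leaves, beside -0.02 and -0.05 over all gene models tested.

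A missing call from turning to yellow leaves does not show that a member stayed the same. The standard error of this log2 fold change ran from 0.14 to 1.05 over the members, with a median of 0.29. The mean yellow level was above the turning mean for 11 members and below it for 21. All yellow libraries lay under all turning libraries for 2 members, Gb_17704 and Gb_09837, and none had all yellow libraries above all turning ones. Over all gene models tested, the shares with such a separation were 26.3% and 25.8%. The limits on the ratio of means leave little room for it, so nothing is read from these counts. Compared within the same library number, yellow over turning lay inside the limits set for the means at all 3 numbers for 6 members, at 2 numbers for 9, at 1 number for 15 and at none for Gb_06356 and Gb_18746. Among the 4423 gene models that passed the same green minimum and the same limits on the mean, 43.5% were inside the limits at all 3 numbers, beside 18.8% of the members. These models were not matched to the members on counts in turning or yellow leaves, and low counts there widen ratios of single libraries.

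Gb_17704 had the narrowest spread between yellow libraries. It had 657, 567 and 532 normalized counts in green, 240, 231 and 260 in turning and 213, 213 and 212 in yellow libraries. Its yellow libraries all lay below its turning libraries. Yellow over turning was 0.89, 0.93 and 0.82 within library numbers 1, 2 and 3. Gb_09837 had 167, 168 and 181 normalized counts in turning and 124, 147 and 131 in yellow libraries, again with no overlap. Its ratio of means of 0.78 lies near the lower limit of the rule, and the log2 fold change between these stages was -0.39 ± 0.18 (SE).

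At the upper limit stood Gb_36119, with 157, 222 and 318 normalized counts in green, 54.0, 46.8 and 42.4 in turning and 72.8, 50.02 and 64.5 in yellow libraries. Yellow libraries 1 and 3 lay above all turning libraries, and yellow library 2 lay among them. Its ratio of means was 1.31, with a log2 fold change of 0.36 ± 0.29 (SE). Gb_18746 was next with a ratio of 1.27. At the lower limit Gb_09622 had a ratio of 0.78, from 101, 107 and 83.9 normalized counts in turning and 68.7, 70.6 and 87.5 in yellow libraries.

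The limits of the rule cut through a continuous range. For the 2-fold limit, the lowest green library was 2.01 times the highest turning library for Gb_12758 and 2.02 times for Gb_09837, both inside. It was 1.99 times for Gb_30121 and 1.97 times for Gb_17370, which met every other condition and are not members. Gb_17370 went from a mean of 3633 in green to 1337 in turning and 1357 in yellow leaves, a course like that of the members.

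A level course after an early fall was the exception. Of the 12224 gene models that passed the minimum in every green library, 288 had all turning libraries at least 2-fold lower. Of those 288, 222 or 77.1% had a yellow mean under 0.75 times the turning mean, 33 or 11.5% had one above the upper limit, and the 32 members made up 11.1%. The 1 remaining model was level but under 27 in every yellow library. Among all 12224 models with the same green minimum, 36.2% had a yellow mean inside the limits, 31.5% below and 32.3% above them. The turning libraries enter both ratios, so these shares are given side by side only. Models that fell further started from a similar place, with a median of 380 normalized counts in green, beside 332 for the members, both in reads and not per length. They stood at a median of 29.5% of green in turning leaves, beside 27.4% for the members, and then at 8.54% in yellow leaves.

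**Figure D3:**
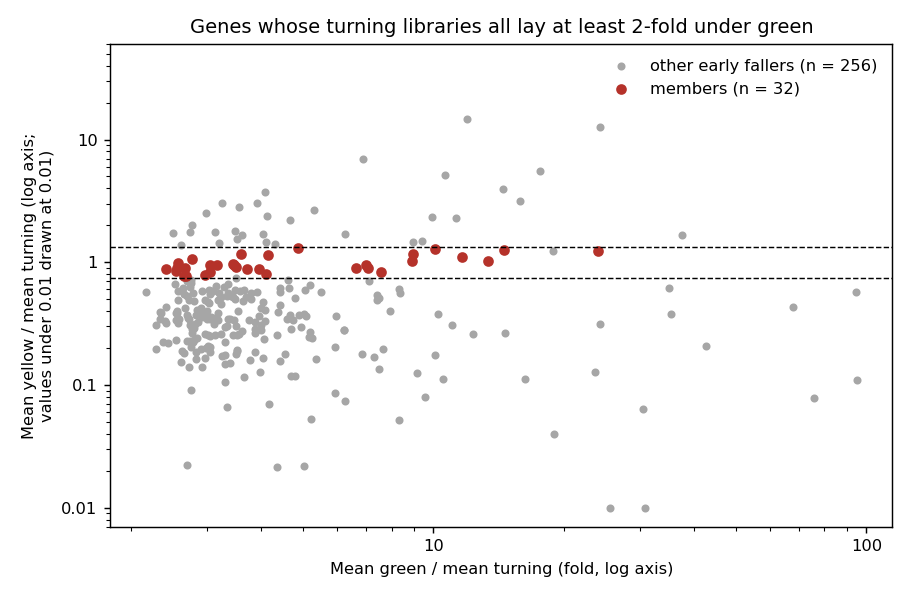
Ratio of mean yellow to mean turning normalized count against ratio of mean green to mean turning, both on log axes, for the 288 gene models whose turning libraries all lay at least 2-fold under green, with the 32 members in red. Dashed lines mark the limits of the rule, most other points lie under them, and 2 values under 0.01 are drawn at 0.01.

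The level course is relative to the scaling of the libraries. Size factors averaged 1.30 in green, 1.16 in turning and 0.69 in yellow libraries, while library totals differed less between stages. With TMM-scaled library sizes the median of yellow over turning was 0.93 over the members, and the rule found the same 32 genes. With library totals alone the median was 0.65, all 32 members had a lower mean in yellow than in turning leaves, 24 of them fell under 0.75, and 10 were called lower in yellow than in turning leaves by edgeR, which called 39.2% of all gene models lower under that scaling. That scaling shifts all gene models, with a median log2 ratio of yellow to turning of -0.55 over those tested, beside -0.02 with size factors. It left 35 gene models meeting the rule, 8 of them members. Levels here are therefore relative to the typical gene model of the library. The fall from green to turning kept its direction in all 32 members with every scaling, with a median of 3.66 times with size factors, 3.64 times with TMM and 4.23 times with library totals.

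How far the choice carries to libraries it did not use was examined by leaving out all libraries of 1 number. The rule applied to the other 6 libraries chose 52 genes without number 1, 63 without number 2 and 94 without number 3. In the left-out libraries, a fall of at least 2-fold from green to turning was met by 39 of 52, 50 of 63 and 73 of 94 of them, or 75%, 79.4% and 77.7%. Of all gene models that passed the minimum in the left-out green library, 11.4%, 10.5% and 9.12% met it. The early fall was thus seen in most chosen genes in libraries that had no part in choosing them.

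Fewer chosen genes met the level course than the fall, at shares slightly above those of all gene models. Few of all those models fell at least 2-fold, so they are not matched to the chosen genes on the fall. More chosen genes lay under the limits than over them. A ratio of yellow to turning inside the limits of the rule in the left-out libraries was met by 20 of 52, 27 of 63 and 36 of 94 chosen genes. These are 38.5%, 42.9% and 38.3%, beside 32.2%, 33.3% and 36.1% of all gene models with the same green minimum. The median ratio in the left-out libraries was 0.78, 0.82 and 0.83 for the chosen genes and 0.999, 0.9999 and 1.01 for all models. Chosen genes under the limits numbered 22, 27 and 36, and those over them 10, 9 and 22. A ratio of single libraries varies more than a ratio of means. Both conditions were met together by 16, 23 and 26 chosen genes, or 30.8%, 36.5% and 27.7%, beside 1.94%, 1.79% and 1.56% of all models. Of the chosen genes that fell in the left-out libraries, 16 of 39, 23 of 50 and 26 of 73 were also level. Of all models, 11.4%, 10.5% and 9.12% fell, beside the shares just given for both conditions. Among genes that fell, the level part was thus larger for the chosen genes than for all models. The turning library enters both conditions, so the difference was not divided between them.

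**Figure D4:**
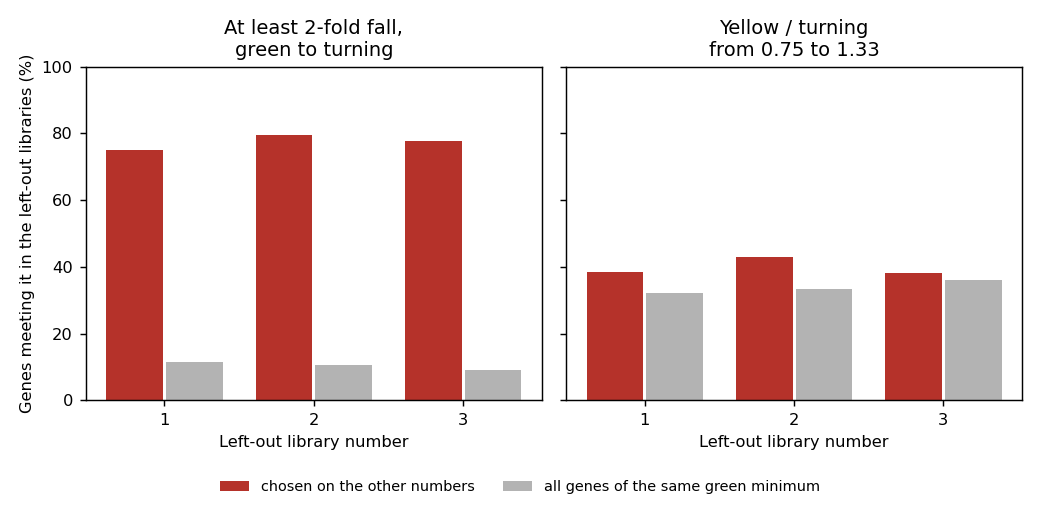
Percentage of genes chosen on the libraries of the other numbers that met each condition in the left-out green, turning and yellow libraries (red), beside all gene models that passed the minimum in the left-out green library (grey). The fall was met by 75% to 79.4% against 9.12% to 11.4%, and the level course by 38.3% to 42.9% against 32.2% to 36.1%.

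The rule makes no use of library numbers, and the members leaned towards library 2. The 222 genes that fell further leaned the same way in turning leaves. In green leaves they were low in library 3 as the members were, with their median in library 2 little above that in library 1. Library 2 was the highest of its stage for 21 of 32 members at the green stage, 16 at the turning stage and 17 at the yellow stage, beside 31.2%, 31.97% and 31.9% of all gene models tested. Library 3 was the lowest for 21, 15 and 15 members, beside 38.5%, 35.5% and 33.2%. The median member stood 0.17, 0.12 and 0.20 above its stage mean on the log2 scale in library 2 and 0.14, 0.16 and 0.21 below it in library 3, after 1 was added to normalized counts. For all gene models tested these medians lay between -0.05 and 0.01 in every library. The 222 genes that fell further had medians of 0.05, 0.13 and 0.04 in library 2 at the green, turning and yellow stages. In library 3 their medians were -0.13, -0.10 and 0.03. In green library 1 their median was 0.04, close to that in green library 2, beside -0.07 for the members. Library 2 lay above the stage mean for 75% of the members and 63.1% of those 222 in green, for 62.5% and 68.5% in turning, and for 75% and 54.5% in yellow leaves. In green library 3 and turning library 2 the medians of both lists were close, and the difference between the lists in yellow leaves was not tested. The summed normalized counts of the members were 26356, 37714 and 29550 in green, 4453, 5925 and 4028 in turning and 4369, 6320 and 3708 in yellow libraries. Without Gb_34514 the sums were 18535, 21715 and 15598, then 3965, 4112 and 3740, then 3464, 4468 and 3237. With or without that gene, library 2 held the highest sum at each stage. Members are not independent of each other, so these counts carry no test.

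**Figure D5:**
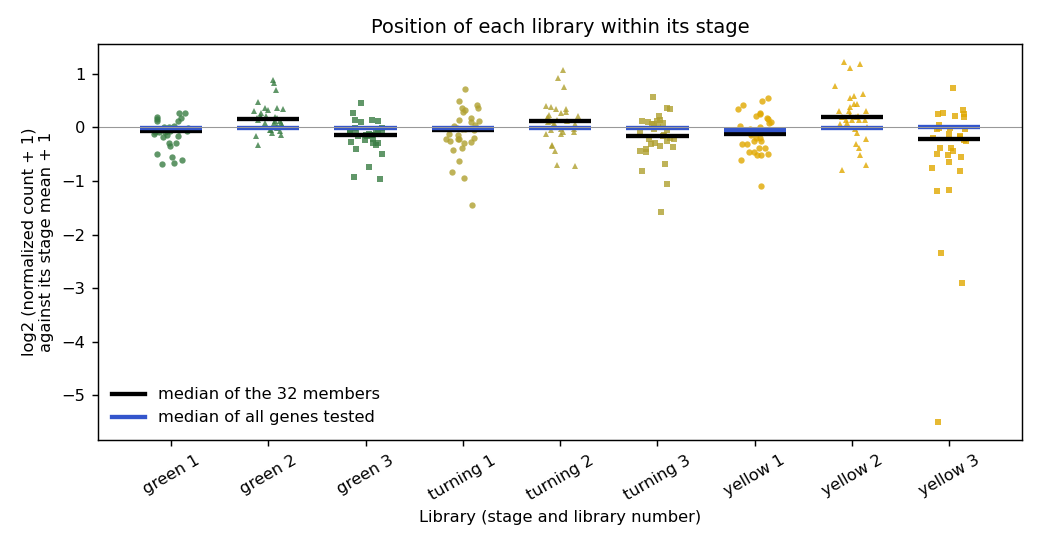
log2 of the normalized count plus 1 of each member (points) against its stage mean plus 1, in each library, with the median of the members in black and of all gene models tested in blue. The black lines lie above 0 in library 2 and below 0 in library 3 at all 3 stages, and the blue lines stay within 0.05 of 0.

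A single member differed by library number in the test across all gene models. Gb_34669 was lower in library 3 than in library 2 by a log2 difference of -2.26 over the stages, and higher in library 2 than in library 1 by 1.44 (edgeR quasi-likelihood F test of the library number beside the stage, adjusted p = 0.0325). Over the alternatives this adjusted p ran from 3.64e-06 to 0.128. The order of library 2 over library 1 over library 3 was seen at 3 of 3 stages. The background for this test was 6.80% of gene models, beside 1 of 32 members. An unadjusted p below 0.05 was reached by 8 members, or 25%, near the 24.5% of all gene models. The call of Gb_34669 held when turning library 1 or yellow library 3 was left out and was lost without any other single library. No member passed without green library 1, green library 2, turning library 2, turning library 3 or yellow library 2. Gb_34514 alone passed without green library 3 (edgeR adjusted p = 0.017), Gb_09903 alone without yellow library 1 (0.0493), and Gb_34669 and Gb_13977 without yellow library 3. The DESeq2 likelihood ratio test called 4 members, Gb_34669, Gb_13977, Gb_34514 and Gb_39001, where it called 15.4% of all gene models.

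The next members by this test did not pass it. Gb_13977 had 241, 499 and 184 normalized counts in green, 12.0, 66.4 and 25.4 in turning and 16.2, 83.9 and 6.14 in yellow libraries, so library 2 was the highest at every stage (edgeR adjusted p = 0.0582, from 0.000218 to 0.218 over the alternatives). The lowest of these values rest on 12 counts in turning library 1 and 4 counts in yellow library 3. Gb_39001 had 289, 456 and 324 normalized counts in green, 20.0, 52.7 and 46.2 in turning and 33.7, 70.6 and 35.3 in yellow libraries (edgeR adjusted p = 0.111, from 0.0465 to 0.293). Gb_34514 gave an adjusted p of 0.128 with edgeR, from 0.00505 to 0.432 over the alternatives. The same library number was highest at all 3 stages for 8 members, near the background of 27.9%. Library 2 was highest throughout for 7 of the 32 members, or 21.9%, beside 9.83% of the gene models tested.

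The spread between libraries was widest among members with the deepest fall, a relation the rule itself favours, since a gene with a wide spread keeps all green libraries 2-fold above all turning ones only if its mean fall is large. For the 7 members at least 8 times lower in turning leaves, the highest library was a median of 2.11 times the lowest in green, 2.999 times in turning and 3.29 times in yellow leaves. For the 18 members under 4 times lower these medians were 1.28, 1.46 and 1.60. All 7 of the first group had their highest value in library 2 in both green and yellow leaves, and 4 of them in turning leaves as well. All 7 had a yellow mean above the turning mean, against 2 of the 18. The turning mean enters both the size of the fall and the ratio of yellow to turning, so a low turning value raises both. These groups were drawn after the values were seen, and no test is given.

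Single libraries decided whether many members counted as level. When each library was left out in turn and the rule applied again, 11 of the 32 members met it all 9 times. All 32 met it whichever green library was left out. With the scaling kept, the lowest green value could only stay or rise, and the ratio of yellow to turning was untouched. That result was therefore all but fixed in advance, and it enters every count out of 9 given here. Of the 32, 18 met the rule whichever turning library was left out, and 13 whichever yellow library was left out. Other genes also entered, and the rule then held for 69 genes without green library 3 and for 66 without turning library 2. Gb_06356 met it in 5 of 9 cases. Its ratio of yellow to turning was 1.22 with all libraries, 0.43 without yellow library 2, 1.84 without yellow library 3 and 1.84 without turning library 1. Gb_34514 had a ratio of 1.25, and 2.78 without turning library 2. Gb_34669 had a ratio of 1.10, with 0.45 without yellow library 2 and 1.68 without turning library 2. Gb_13977 had a ratio of 1.02, with 0.32 without yellow library 2 and 1.89 without turning library 2. Gb_04147, Gb_08978 and Gb_17704 met the rule in all 9 cases.

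Of the members, 30 have identifiers beginning with Gb_ and 2 carry the other prefix in the table, Novel01584 and Novel01410, which are named for this after their values were seen. That is 6.25% of the members, beside 6.83% of the gene models tested. Among the members, those with more reads in green leaves, not corrected for length, tended to fall further, with Spearman's rho of 0.43 across 32 genes. The points share all 9 libraries, and the green mean enters both measures.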

How the data were processed

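The authors deposited raw read counts per gene model, 1 column for each of 9 libraries, and every column matched 1 library title. Per the submitters' processing notes CASAVA 1.8, HISAT2 2.0.4 and HTSeq 0.6.1 were used, without their roles. The genome build, annotation and strand setting were not given in the sources used here, so overlapping or near-identical gene models could share reads.

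The rule asked for normalized counts of at least 135 in all green libraries, a yellow over turning ratio of means of 0.75 to 1.33 and at least 27 in 1 yellow library or more, and an alternative narrowed the ratio to 0.87 to 1.15. Size factors were medians of ratios over gene models with counts in all libraries, and ranged from 0.651 to 1.49. Counts were tested in R 4.3.3 with edgeR 4.0.16 (filterByExpr with minimum count 10 and minimum total 15, TMM, robust glmQLFit and glmQLFTest) in 1 model of all 9 libraries, with 6 residual degrees of freedom. P-values were two-sided and adjusted by Benjamini-Hochberg over 23042 gene models. The library number was tested beside the stage, with 4 residual degrees of freedom. DESeq2 1.42.0 gave alternatives. The tests were checked on simulated counts, drawn independently for each library with 1 common spread. That check does not cover the correlation between libraries of the same number described below.

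No pair of libraries of a stage agreed within sampling noise (chi-square per degree of freedom of at least 36.8). Deviations from stage means correlated across genes with r from 0.24 to 0.66 for libraries of the same number and from -0.52 to 0.03 otherwise, so the numbers were read as pairing libraries, from the data and not the labels.

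Members were named by rule: the largest fall, the most green reads, the narrow and wide yellow spread, both edges of the limits and the smallest p for library number. The members, lists and alternatives were chosen with earlier results of these data known. Pathway and cell type lists were not tested, since no gene names were used here. Floors and counts cover counting error only.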

Additional observations from a re-analysis of the deposited data

How the results depend on the processing

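The number of genes meeting the rule was 32. It was 18 with a green minimum of 270, 18 with limits on yellow over turning narrowed as described with the processing, 46 with a minimum of 67, 29 with poscounts size factors, and 27 to 69 with 1 library left out, with 69 without green library 3 and 66 without turning library 2. With library totals 10 members were called in yellow against turning leaves, in place of 0, and with 1 library left out 0 to 1 were, the 1 being without yellow library 3. Members called lower in turning than in green leaves numbered 27 to 32 with 1 library left out, and those lower in yellow than in green leaves 31 to 32. With the replicate block, the library number as a term, these counts stayed at 32 and 32, with 0 called in yellow against turning leaves. It changed no such call of a member, but the rule had largely fixed these counts. Over all gene models tested, the block raised the share called lower in turning than in green leaves from 12.3% to 19.3%. The share called lower in yellow than in turning leaves rose from 21.0% to 26.0%. The library number was called for 4 members by DESeq2 and for 0 to 2 with 1 library left out, in place of 1. Where library 2 was highest, an alternative chosen after seeing the data, the counts were 21, 16 and 17 with TMM and 21, 18 and 16 with library totals. A fall of 1.5-fold in the left-out number in place of 2-fold raised the genes meeting both conditions to 20, 26 and 31. Low counts limit the later stages most, where members reached 12 counts in turning and 0 in yellow libraries. The cause of these shifts was not tested.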
